A study of Mus musculus with 36 samples.

Results

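The genes described here are a fixed list of 35 tendon and connective tissue matrix genes, taken by symbol and joined between the deposited tables by Ensembl identifier. Of these, 34 were in both tables, among 50833 genes with counts and 55052 with length-scaled values (FPKM), and Osr3 was not in the tables. RNA was sequenced from forelimbs of mouse embryos at stage E12.5, strain B6CBAF1, cut into a distal piece (the future hand) and a proximal piece (the future arm). Each tissue was taken from wild type (WT) embryos and from 5 alleles in which binding sites (CBS) of the chromatin protein CTCF had been removed by CRISPR/Cas9 at the Hoxd gene cluster. The allele named for a single site is Del(CBS1), the series goes on with Del(CBS1-2) and Del(CBS1-3), and the widest deletions are named Del(CBS1-4) and Del(CBS1-5). The labels name no other allele or agent and do not say whether the embryos carried 1 or 2 mutant copies. There were 3 libraries in each of the 12 groups, 36 in all, and each library came from the pair of limbs of an individual. The question addressed was how removing CTCF sites alters gene expression in the limb.

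Tendons and connective tissue are built from fibrils of collagen I, joined by the minor collagens III and V, coated by collagens XII and XIV and by small leucine-rich proteoglycans, and set in a web of fibronectin, fibrillin, elastin and collagen VI. In the limb bud these proteins come from mesenchymal cells, and Scleraxis (Scx) and Mohawk (Mkx) are the transcription factors best known from tendon progenitors. Matricellular proteins such as tenascin, thrombospondins, periostin, SPARC and CCN2 act on cells and on fibril assembly, and lysyl oxidases crosslink the fibres.

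Promoters were looked at because several of the genes that differed most between the tissues lie side by side. On mm10, the build named in the submitters' processing notes, Dcn (chr10:97479609-97518143), Lum (chr10:97565128-97572703) and Kera (chr10:97606879-97613692) follow each other on the plus strand. Aspn (chr13:49544443-49567565) and Ogn (chr13:49608046-49624501) lie close together, also on the plus strand and within the span of Cenpp, which is read from the other strand. Col6a1 (chr10:76708792-76726168) lies beside Col6a2 (chr10:76595762-76623630), and Col3a1 (chr1:45311538-45349706) beside Col5a2 (chr1:45374321-45503282). The deposited start and end of 31 of the 34 genes equalled those of the GENCODE M21 annotation of mm10. The exceptions were Scx, Col12a1 and Tnxb.

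Of the 34 genes, 18 had a RefSeq promoter sequence (GRCm38.p6). In the 250 bases before the start site, the letters TATAAA, a core promoter element, occurred on either strand in 6 of the 18 (Aspn, Col3a1, Ogn, Postn, Thbs2 and Tnc), against 13% of 27025 promoters of the same length. The E-box CANNTG, read by basic helix-loop-helix factors such as Scx, occurred in 11 of 18 against 66.0%. CATCTG, 1 of the E-box forms and so counted in both searches, occurred in 3 of 18 against 14.5%, and the TEAD site GGAATG in 3 against 12.6%. The CCAAT box CCAAT (4 of 18 against 34.5%), the GC box GGGCGG (7 against 32.9%) and CAGAC, part of a SMAD-binding element (10 against 42.1%), were searched as well. A match is a run of letters and not a known site. Shown are the promoters of the neighbours Aspn and Ogn, members of the proteoglycan family with the largest tissue differences below, and of Postn, which also differed between genotypes. They are printed from 5′ to 3′ on the plus strand (Aspn chr13:49544193-49544442, Ogn chr13:49607765-49608014, Postn chr3:54360857-54361106), with TATAAA on either strand in capitals.
Aspn: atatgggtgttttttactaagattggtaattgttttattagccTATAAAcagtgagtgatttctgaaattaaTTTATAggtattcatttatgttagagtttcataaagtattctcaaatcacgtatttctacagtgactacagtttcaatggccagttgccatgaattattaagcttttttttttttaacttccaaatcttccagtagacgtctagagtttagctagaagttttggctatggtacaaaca
Ogn: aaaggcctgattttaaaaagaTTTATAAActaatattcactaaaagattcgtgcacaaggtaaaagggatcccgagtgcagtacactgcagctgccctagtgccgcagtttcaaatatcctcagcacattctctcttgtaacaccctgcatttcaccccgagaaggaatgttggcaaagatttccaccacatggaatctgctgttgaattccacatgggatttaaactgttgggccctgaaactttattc
Postn: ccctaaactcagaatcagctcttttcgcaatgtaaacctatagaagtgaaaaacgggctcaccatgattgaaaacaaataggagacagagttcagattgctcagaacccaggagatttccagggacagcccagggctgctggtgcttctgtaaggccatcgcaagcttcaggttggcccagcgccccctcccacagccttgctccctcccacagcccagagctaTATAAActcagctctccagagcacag
In Postn the run began 26 bases before the start site. In Aspn and Ogn both runs lay farther upstream, at 207 and 178 bases in Aspn and at 229 and 227 bases in Ogn, where they overlap.

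Total counts per library were 11062069 to 17727891, and the 34 genes took 0.444% to 1.79% of them. The tissue labels were matched by the 14 distal mesenchyme genes looked at, whose summed level was 3589 to 3954 CPM (counts scaled to library size) in distal WT and 731.1 to 1167 CPM in proximal WT. Libraries of a group came from separate embryos, and pairs of them differed by more than sampling noise. Levels below are CPM scaled over all 36 libraries unless FPKM is named, and log2 fold changes carry their standard error (SE).

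In WT, most of the genes were lower in distal than in proximal tissue. Of the 32 tested, 30 fell in distal tissue and 0 rose. Aspn, Col6a5 and Kera reached the filter on low counts only through the proximal libraries, so that a lower distal level was built into their choice. Of the other 29, 27 fell, and their median log2 fold change was -1.81 against 0.00 for all 14918 genes tested. Called genes are those with a p under 0.05 in edgeR's quasi-likelihood test after Benjamini-Hochberg adjustment over all genes, and 30.7% of all genes were called in this comparison, 17.1% lower and 13.6% higher. In these 27 the distal libraries lay below the proximal ones, which was so for 23.3% of all genes. In bulk tissue, fewer cells of a type and less RNA per cell cannot be told apart. The exceptions were Mkx (0.06 ± 0.15) and Fbn1 (-0.29 ± 0.14, adjusted p = 0.149). With embryos as a block, the paired fit, Fbn1 was called as well (-0.31 ± 0.07, edgeR, Benjamini-Hochberg adjusted p = 0.00365). Mfap5 and Tnxb were under the count filter, at 0.225 ± 0.161 and 0.0206 ± 0.0357 CPM in distal and 0.593 ± 0.403 and 0.165 ± 0.0593 CPM in proximal WT (SD, n = 3).

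The regulators differed from each other. Scx, the tendon progenitor factor, stood at 28.2, 21.9 and 21.7 CPM in the distal WT libraries and at 80.4, 75.6 and 69.1 CPM in the proximal ones. The groups did not overlap, and the log2 fold change was -1.65 ± 0.11 (edgeR, Benjamini-Hochberg adjusted p = 1.337e-05). Mkx, which acts in tendon fibril growth, stood at 39.9, 52.8 and 45.8 CPM in distal and 41.5, 54.3 and 36.5 CPM in proximal WT. These libraries overlapped throughout. Mkx did not pass in the fit of any genotype (0.17 to -0.26). With embryos as a block it was higher in distal tissue of Del(CBS1-2) (0.17 ± 0.05, edgeR, Benjamini-Hochberg adjusted p = 0.0107) and lower in that of Del(CBS1-5) (-0.26 ± 0.07, adjusted p = 0.00948).

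The fibril collagens fell together in distal WT tissue. Col1a1 and Col1a2 encode the chains of collagen I and had log2 fold changes of -2.22 ± 0.14 and -1.01 ± 0.07. Col3a1 fell by 2.15 on the log2 scale, Col5a1 by 1.15 and Col5a2 by 0.58, so the adjoining genes Col3a1 and Col5a2 differed in size. The fibril-coating collagens Col12a1 (-1.40 ± 0.22) and Col14a1 (-2.98 ± 0.15) were lower too. Per gene length, Col3a1 had the highest proximal WT level of the list, at 390 FPKM (90.9 in distal WT), followed by Col1a2 at 252.6 FPKM (126.4 in distal WT).

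The collagen VI chains Col6a1 (-2.37 ± 0.14), Col6a2 (-1.71 ± 0.09) and Col6a3 (-2.25 ± 0.14), which form the beaded filaments around cells, fell as well. Col6a5, a further collagen VI chain, stood at 0.479, 0.419 and 0.247 CPM in distal WT and 13.1, 5.45 and 9.26 CPM in proximal WT. The distal value rests on 17 counts in all. As Col6a5 passed the count filter only through the proximal libraries, these levels are a description with no test.

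The small leucine-rich proteoglycans, which bind collagen and set fibril width, held the largest differences. Aspn was at 0.273 CPM in 1 distal WT library and at 0 in the other two, 4 counts in all, against 8.16, 11.9 and 5.92 CPM in proximal WT. Kera, known from the cornea, stood at 1.78, 2.17 and 0.371 CPM in distal and 117.5, 92.3 and 92.5 CPM in proximal WT. For these genes too the levels are a description with no test. Ogn was likewise near 0 in distal WT, at 0.821, 0.769 and 0.866 CPM, and reached 50.6, 53.0 and 37.8 CPM in proximal WT (-5.83 ± 0.19). Lum and Dcn, the neighbours of Kera, followed. Lum stood at 6.77, 6.85 and 2.91 CPM in distal and 185.1, 160 and 188.4 CPM in proximal WT (-5.03 ± 0.23). Dcn stood at 5.47, 6.92 and 4.45 CPM in distal and 74.5, 85.9 and 58.1 CPM in proximal WT (-3.71 ± 0.19). Ogn, Lum and Dcn, which reached the count filter in both tissues, did not overlap between them. Fmod, on chromosome 1, differed less (-1.48 ± 0.15).

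Among the matricellular genes, Tnc and Thbs4 differed most. Tnc, a tenascin of tendon and muscle attachments, stood at 36.5, 49.5 and 25.2 CPM in distal and 386.1, 338.1 and 372.4 CPM in proximal WT (-3.31 ± 0.20). Thbs4, a thrombospondin of tendon and muscle, stood at 0.684, 1.05 and 0.866 CPM in distal and 10.9, 14.0 and 10.9 CPM in proximal WT (-3.77 ± 0.23). Both were apart in every library. Postn (-3.19 ± 0.34), Thbs2 (-2.96 ± 0.22), Ccn2 (-1.99 ± 0.20) and Sparc (-0.92 ± 0.11) fell too. Exons of the antisense transcript Gm15270 cover 23.24% of the exon bases of Ccn2, and those of Gm9913 cover 20.14% of the exon bases of Fbn1. Whether counting used strand is not given in the sources used here. Part of these counts is therefore uncertain.

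The web of fibronectin and elastic fibres showed the smaller differences. Fn1 fell by 0.52 on the log2 scale, Fbn2 by 0.67, and Mfap4, a microfibril protein, by 0.26, whereas Eln, which encodes elastin, fell by 1.81. Of the crosslinking enzymes, Lox had -3.26 ± 0.17 and Loxl1 -0.50 ± 0.14. Loxl1 lost its call when distal WT replicate 3 or any 1 of the proximal WT libraries was left out, and in limma on log2(FPKM + 0.1) or log2(FPKM + 1). No other of the 30 lost its call in any alternative.

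The same direction was found in the mutants, whose tissue comparisons share no library with WT or with each other. Among genes that reached the count filter in both tissues, edgeR called 27 of 28 lower in distal tissue of Del(CBS1) (19.7% of all genes called lower), 29 of 30 in Del(CBS1-2) (25.9%), 23 of 26 in Del(CBS1-3) (18.3%), 28 of 30 in Del(CBS1-4) (20.8%) and 25 of 26 in Del(CBS1-5) (21%). None was higher. Between 3 and 6 further genes per mutant, drawn from Aspn, Col6a5, Kera, Ogn, Thbs4, Col14a1, Mfap5 and Tnxb, reached the filter only through proximal libraries and are left out of these counts. Of the 26 genes that reached it in both tissues of all 6 genotypes, 22 were called lower in each. How many of all genes were called lower in each genotype was not looked at. The values ran from -2.05 to -2.26 for Col3a1 and from -0.93 to -1.10 for Col1a2. Those of Tnc ran from -1.95 to -3.66 and those of Lum from -3.37 to -5.81. Scx ranged from -1.12 in Del(CBS1-2) to -1.65 in WT. With embryos as a block, Col5a2 and Loxl1 joined the lower genes in Del(CBS1-3) (edgeR, Benjamini-Hochberg adjusted p = 4.016e-06 and 0.00108) and Fbn1 in Del(CBS1-4) (0.00317).

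**Figure D1:**
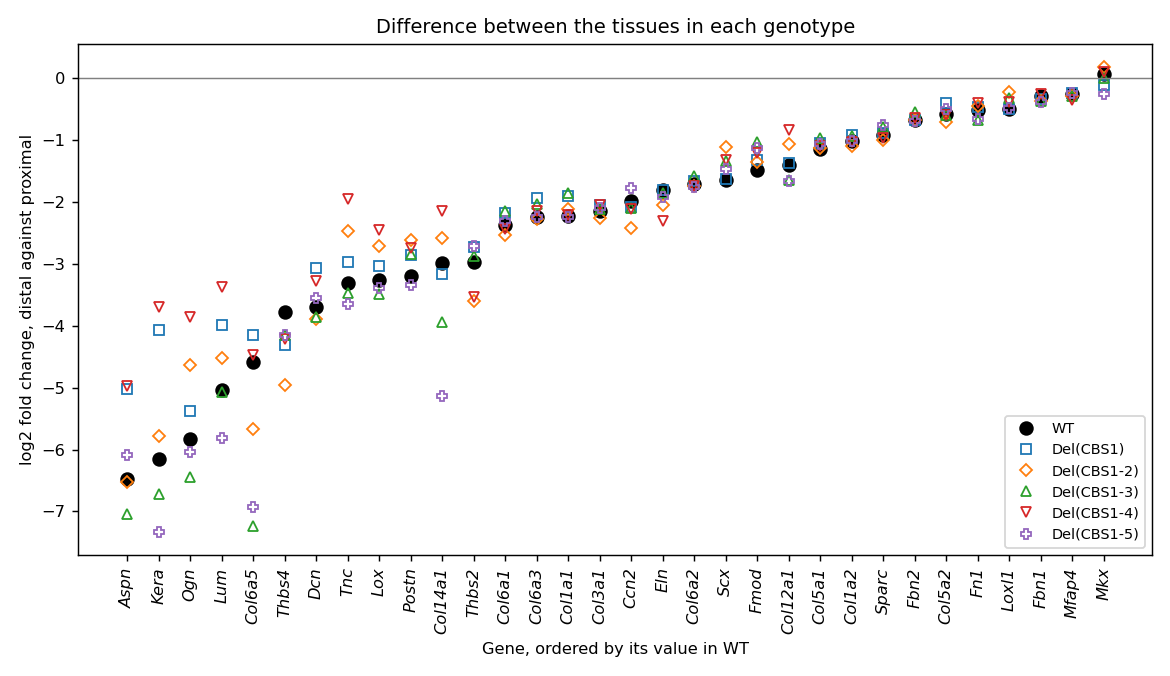
The log2 fold change of distal against proximal tissue for each gene tested in WT, ordered by its WT value, with 1 symbol per genotype. Values run from -6.48 (Aspn) to 0.06 (Mkx) in WT. Mkx and Fbn1, near the zero line, are the genes not called in WT. Aspn, Col6a5 and Kera reached the count filter in WT only through proximal libraries. In some mutants this held for Ogn, Thbs4 or Col14a1 too.

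Other matrix and regulator genes, in lists that share no gene with the 35, were also mostly lower in distal WT tissue. Over all genes 17.1% were called lower and 13.6% higher. List genes that reached the count filter only through proximal libraries were not set apart, and for such genes a lower distal level was built in. Of 17 further collagens tested, fibrillar and other, 14 fell and 1 rose (median -1.18). Col26a1 (-1.05 ± 0.06), Col8a2 (-3.81 ± 0.23), Col2a1 (-1.18 ± 0.08) and Col8a1 (-2.63 ± 0.19) had the smallest p. Some of these collagens, Col2a1 among them, are also in the cartilage list below. Collagen-processing genes had 24 of 26 lower and 2 higher (median -0.55), led by the prolyl 3-hydroxylases P3h1 (-0.69), P3h3 (-0.70) and P3h2 (-1.08) and by Adamts2 (-1.82), which trims procollagen. Of 33 other matrix genes, 19 fell and 2 rose (median -0.57). Igfbp5 (-1.78), the basement membrane gene Nid1 (-0.87) and Ccn4 (-1.85) were among those lower, and Has2, a hyaluronan synthase, was higher (1.47 ± 0.09). Tendon lineage regulators had 9 of 17 lower and 2 higher (median -0.53), with Thbs1 (-1.27), the TGF-beta co-receptor Tgfbr3 (-1.55), the transcription factor Egr1 (-2.24) and the ligand Tgfb3 (-0.94). Connective tissue fibroblast regulators had 13 of 19 lower and 3 higher (median -0.63), with Hic1 (-2.96), Twist2 (-1.62), Pdgfra (-0.86) and Cxcl12 (-1.90). Tnmd, a tendon differentiation marker, and Bgn, a proteoglycan, were in the FPKM table only and were not tested. Tnmd stood at 0.251 ± 0.0905 FPKM in distal and 1.15 ± 0.877 FPKM in proximal WT (SD, n = 3), and Bgn at 22.4 ± 1.39 and 34.9 ± 6.26 FPKM.

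Markers of other tissues of the arm differed along with them. The summed level of 25 skeletal muscle genes was 54.4 to 56.3 CPM in distal and 2801 to 3198 CPM in proximal WT, with 0 of the 25 at 0 in either, and all 24 tested were lower distally. That of 22 cartilage genes was 2538 to 3078 against 5012 to 5506 CPM, with Ucma alone at 0 in distal WT (14 of 20 tested lower, 3 higher). Nerve and Schwann cell genes (11 summed) stood at 129.4 to 143.3 against 307.8 to 323.4 CPM (8 of 9 tested lower), and smooth muscle and pericyte genes (10) at 549.5 to 571.1 against 922.1 to 1004 CPM (6 of 9 lower), with none at 0. Endothelial genes had 10 of 15 lower. Proliferation genes went the other way (16 of 16 higher distally), as did 8 of 14 epidermal genes, with 2 lower. Over all genes 17.1% were called lower and 13.6% higher. Macrophage genes (1 of 12 lower) and erythroid genes (1 of 9 higher) were called no more often than that and show no direction. The part of these lists in the difference was not tested. Genes of these lists that reached the count filter only through proximal libraries, as scarce distal genes can, were not set apart. For such genes a lower distal level was built in.

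**Figure D2:**
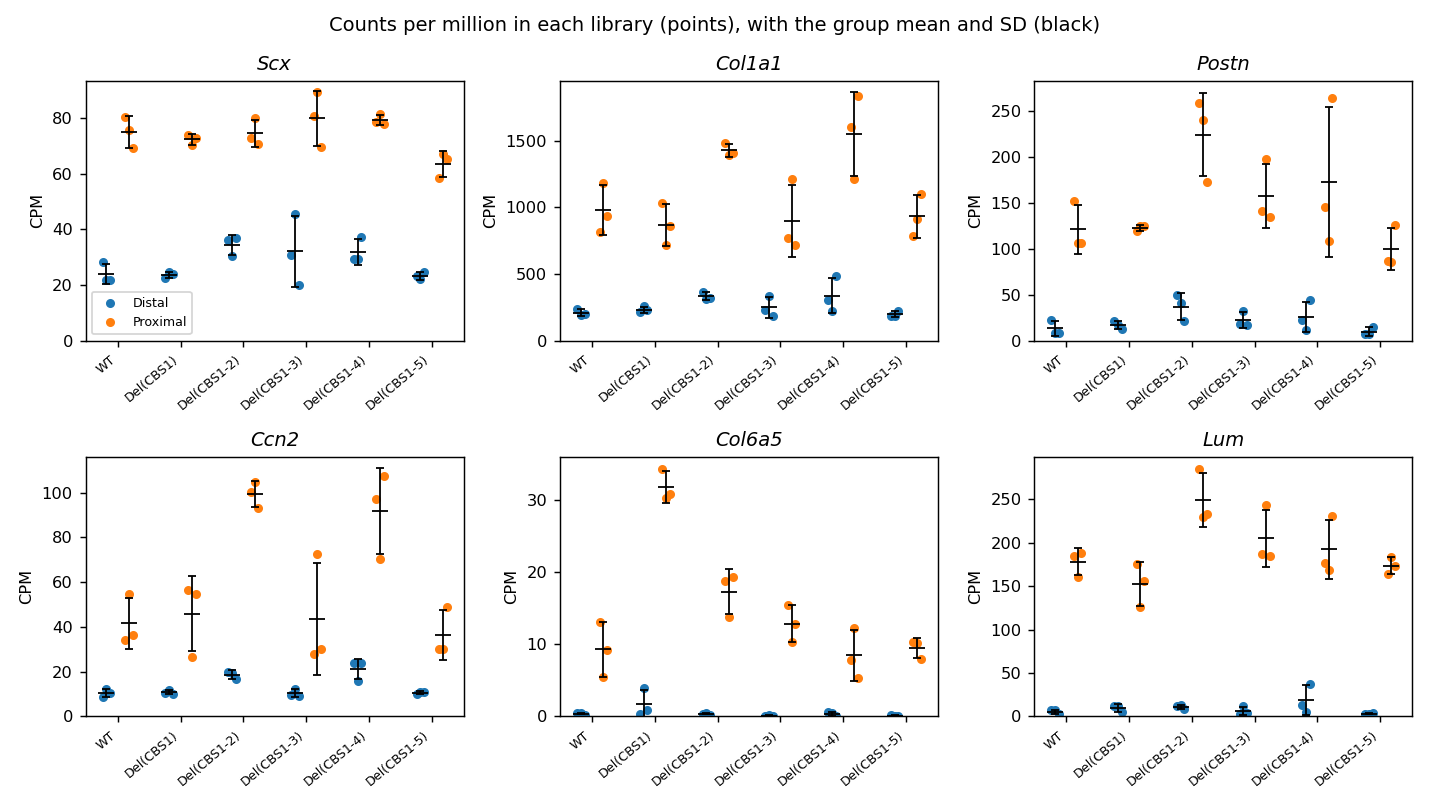
CPM of Scx, Col1a1, Postn, Ccn2, Col6a5 and Lum in every library (points) by genotype and tissue, with the group mean and SD in black and each axis starting at 0. Proximal libraries lie above distal ones in WT for all 6 genes, and Col6a5 is highest in proximal Del(CBS1), at 30.3 to 34.3 CPM.

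The mutants were then compared with WT within each tissue, in 1 fit of its 18 libraries. These comparisons share the 3 WT libraries of a tissue and so are not independent. In distal tissue 30 of the 34 genes were tested, as Aspn, Col6a5, Mfap5 and Tnxb were under the filter, and in proximal tissue all 34.

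In distal Del(CBS1-2), 7 of the 30 genes rose and 0 fell (edgeR, 10.5% of 15361 genes called, 4.47% higher and 5.99% lower). Kera and Thbs4 reached the count filter there in the mutant and not in WT. The other 28 all had a positive log2 fold change, with a median of 0.50 against 0.00 for all genes, and 24 of them had all 3 mutant libraries above all 3 WT libraries (16.8% of all genes). Ccn2, a matricellular growth factor partner, stood at 8.62, 12.2 and 10.6 CPM in distal WT and at 19.9, 19.5 and 16.5 CPM in distal Del(CBS1-2). The groups were apart (0.81 ± 0.16, edgeR, Benjamini-Hochberg adjusted p = 0.00635). Col6a2 stood at 70.0, 62.5 and 63.4 CPM in WT and 99.6, 97.9 and 92.7 CPM in the mutant, again without overlap (0.55 ± 0.12, adjusted p = 0.00834, edgeR).

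Sparc, a collagen-binding glycoprotein, was at 264.4, 293.1 and 257.3 CPM in WT and 382.6, 389.3 and 359.8 CPM in distal Del(CBS1-2). Col5a1 was at 346.9, 345.6 and 321 CPM in WT and 470, 439 and 462.9 CPM in the mutant. Both were apart, with log2 fold changes of 0.46 ± 0.11 and 0.42 ± 0.11 (edgeR, Benjamini-Hochberg adjusted p = 0.0145 and 0.0214). Loxl1, the lysyl oxidase of elastic fibres, was at 55.7, 35.4 and 46.6 CPM in WT and 67.3, 61.7 and 66.9 CPM in the mutant. Fn1, which encodes fibronectin, was at 933.5, 1170 and 967.5 CPM in WT and 1298, 1282 and 1266 CPM in the mutant. Their changes were 0.49 ± 0.13 and 0.31 ± 0.10 (adjusted p = 0.0285 and 0.0483, edgeR), and neither overlapped.

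Postn, a matricellular protein of periosteum and tendon, was at 22.6, 8.81 and 8.66 CPM in distal WT and 49.4, 40.7 and 21.1 CPM in distal Del(CBS1-2). Replicate 3 of the mutant lay below WT replicate 1, so Postn was the called gene whose groups overlapped. Its change of 1.45 ± 0.45 was the largest of the 7 (adjusted p = 0.0466, edgeR), and the call was lost in DESeq2 (adjusted p = 0.0504) and in limma on log2(FPKM + 0.1) (0.0928) and log2(FPKM + 1) (0.0894). With 1 of the 6 libraries of these groups left out in turn, Ccn2 and Col6a2 were called in 6 of 6 fits, Sparc in 5, Col5a1 in 3, Postn in 2, and Loxl1 and Fn1 in 1 each. The count of 7 went to 3 without WT replicate 3, without mutant replicate 1 or without mutant replicate 2, and to 4 without mutant replicate 3.

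Genes of the wider matrix lists rose there as well: 7 of 17 further collagens (Col26a1 0.41, Col24a1 1.44, Col2a1 0.59, Col11a2 0.99) and 7 of 25 collagen-processing genes (P3h1 0.45, Fkbp10 0.25, Crtap 0.36, P3h3 0.33), with 0 lower in either list. Of 32 other matrix genes 8 rose and 1 fell. They included Mfap2 (0.34), Tgfbi (0.44) and Fbln2 (0.40), and the gene that fell was Has2 (-0.56 ± 0.12). Tendon lineage regulators were mixed, with 5 of 16 higher and 2 lower (Thbs1 0.77, Etv5 0.35, Tgfb3 0.42, Tgfbr1 -0.24), and 3 of 20 fibroblast regulators rose (Hic1 0.93, Prrx2 0.27, Tbx5 0.27). Scx was at 36, 30.3 and 37.0 CPM and Mkx at 70.2, 58.9 and 55.4 CPM in distal Del(CBS1-2). Both were above all WT libraries and neither passed in edgeR (0.51 ± 0.19 and 0.39 ± 0.17, Benjamini-Hochberg adjusted p = 0.102 and 0.149). DESeq2 called Scx (adjusted p = 0.0494), one of the 8 genes it called here. Cartilage and muscle markers were higher in the same libraries. The summed level of the cartilage genes was 3809 to 4037 CPM (WT 2538 to 3078; 8 of 20 tested higher, Snorc at 0) and that of the muscle genes 108 to 204.1 CPM (WT 54.4 to 56.3; 2 of 23 higher, none at 0). Nerve, endothelial and epidermal sums were above all WT libraries too (2 of 8, 1 of 15 and 3 of 14 genes higher, 1 epidermal gene lower), and erythroid genes were below them, at 2329 to 2468 CPM (WT 2689 to 3755; 2 of 10 lower). The part of these lists in the result was not tested. Over all genes 4.47% were called higher and 5.99% lower in distal Del(CBS1-2). List genes that reached the count filter in 1 group only were not set apart, and the cartilage and collagen lists share genes.

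In proximal Del(CBS1-2), none of the 34 genes passed in edgeR (0.721% of 15813 genes called). Of the 34, 31 had an unadjusted p under 0.05, with no share of all genes to set beside them. DESeq2 called 5 (520 of all genes) and limma on FPKM 0. Mfap5 and Tnxb did not reach the count filter in WT. Of the other 32, 31 had a positive log2 fold change, with a median of 0.52 against 0.00 for all genes, and in 29 the mutant libraries lay above all WT libraries (13.5% of all genes). Thbs4 had a value of 1.86 ± 0.47 and Ccn2 of 1.24 ± 0.31 (both with a Benjamini-Hochberg adjusted p of 0.0689, edgeR), Aspn of 1.44 ± 0.40 and Thbs2 of 1.10 ± 0.31. Ccn2 was at 33.9, 54.7 and 36.1 CPM in proximal WT and 100.1, 104.5 and 92.9 CPM in proximal Del(CBS1-2). Scx was level with WT (-0.01 ± 0.08). Tnmd averaged 3.66 ± 1.17 FPKM and Bgn 50.8 ± 2.89 FPKM here (SD, n = 3). The cartilage genes summed to 6839 to 7027 CPM (WT 5012 to 5506, 0 called), the muscle genes to 3763 to 4063 CPM (WT 2801 to 3198, 1 called) and the proliferation genes to 3087 to 3223 CPM (WT 3531 to 3914, 1 called lower), with no gene of these lists at 0. Endothelial, macrophage, epidermal and nerve sums were above all WT libraries too. The sum of the distal mesenchyme genes was below them, at 680.8 to 730.9 CPM (WT 731.1 to 1167). Smooth muscle and erythroid sums overlapped WT. Their part was not tested.

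In distal Del(CBS1-4), Ccn2 alone was called (0.0846% of all genes, edgeR). It stood at 23.7, 16.0 and 24.0 CPM, above all WT libraries (1.01 ± 0.16, Benjamini-Hochberg adjusted p = 0.0125). The call was lost without WT replicate 1 (0.88, adjusted p = 0.109), WT replicate 3 (1.01, 0.0735), mutant replicate 1 (0.92, 0.102) or mutant replicate 3 (0.91, 0.148), whereas the number of genes called was 6 without WT replicate 2 and 7 without mutant replicate 2. The 28 genes that reached the count filter in both groups all had a positive value, with a median of 0.48 against -0.01 for all genes, and 14 were apart (9.71% of all genes). Over all 30 genes tested, Kera and Thbs4 included, 25 had an unadjusted p under 0.05. The share of all genes at that level was not looked at. DESeq2 called 5 (Ccn2, Col6a2, Fmod, Fbn2 and Sparc), and 295 of all genes. Of these 28, the scarce proteoglycans Ogn (2.74 ± 0.76) and Lum (1.76 ± 0.58) had the largest values, with wide errors. Kera had 2.63 ± 0.93, but it reached the count filter through the mutant libraries and not in WT. A higher mutant level was thus built into its choice. None of these proteoglycan genes passed. Replicate 3 stood above replicates 1 and 2 in them, with 10.8 CPM of Ogn, 21.1 of Kera and 37.8 of Lum. The summed levels were 3430 to 4107 CPM for cartilage genes (Ucma at 0) and 61.7 to 179.4 CPM for muscle genes (Ckm at 0), with 0 genes called in either. Erythroid genes stood at 2069 to 2544 CPM, below WT, with 0 called. Endothelial, epidermal and smooth muscle sums were above all WT libraries too. Their part was not tested.

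In proximal Del(CBS1-4), none of the 34 genes was called in edgeR, DESeq2 or limma on FPKM (0% of all genes in edgeR), and 21 had an unadjusted p under 0.05. Of the 32 that reached the count filter in both groups, 31 had a positive value, with a median of 0.39, the exception being Col6a5 (-0.12), and 15 were apart (7.96% of all genes). Aspn had 1.45 ± 0.40, Thbs4 1.43 ± 0.47 and Ccn2 1.13 ± 0.31. Cartilage genes summed to 5846 to 8266 CPM and proliferation genes to 3007 to 3584 CPM, with 0 called in either and none at 0. Their part was not tested.

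The remaining alleles showed little. In proximal Del(CBS1), Col6a5 alone was called (0.0443% of all genes, edgeR). It stood at 34.3, 30.3 and 30.8 CPM against 13.1, 5.45 and 9.26 CPM in WT, without overlap (1.79 ± 0.26, Benjamini-Hochberg adjusted p = 0.0143), and without mutant replicate 2 the adjusted p was 0.0516. The other collagen VI chains had values of -0.02 to 0.10 in those libraries and did not pass. Distal Col6a5 was at 3.95 CPM in replicate 2 of Del(CBS1), and at 0 to 0.897 CPM in the other 17 distal libraries. No gene was called in distal Del(CBS1) (0.0325% of all genes, edgeR) or in Del(CBS1-3), distal (0.00651%) or proximal (0.0696%). At an unadjusted p 0, 2 and 2 were under 0.05, and DESeq2 and limma on FPKM called 0.

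No gene was called in Del(CBS1-5) either, distal (0.0651% of all genes called, edgeR) or proximal (0.0696%), with 4 and 2 genes under an unadjusted p of 0.05 and 0 called by DESeq2 or limma. Of the genes that reached the count filter in both groups, values above 0 were found in 2 of 26 in distal tissue (median -0.17) and 1 of 32 in proximal tissue (median -0.20). Of these, 2 lay below all WT libraries in distal tissue (6.13% of all genes) and 3 in proximal tissue (5.62%). The share of all genes with a value below 0 was not looked at, so a fall particular to the list is not shown. Muscle genes summed to 33.3 to 50.8 CPM in distal Del(CBS1-5), below WT (54.4 to 56.3), with Myf6 and Ckm at 0. Erythroid genes summed to 3280 to 6202 CPM in distal tissue (WT 2689 to 3755) and 3244 to 3667 CPM in proximal tissue (WT 2008 to 2605), none at 0. No gene of either list was called, and their part was not tested.

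**Figure D3:**
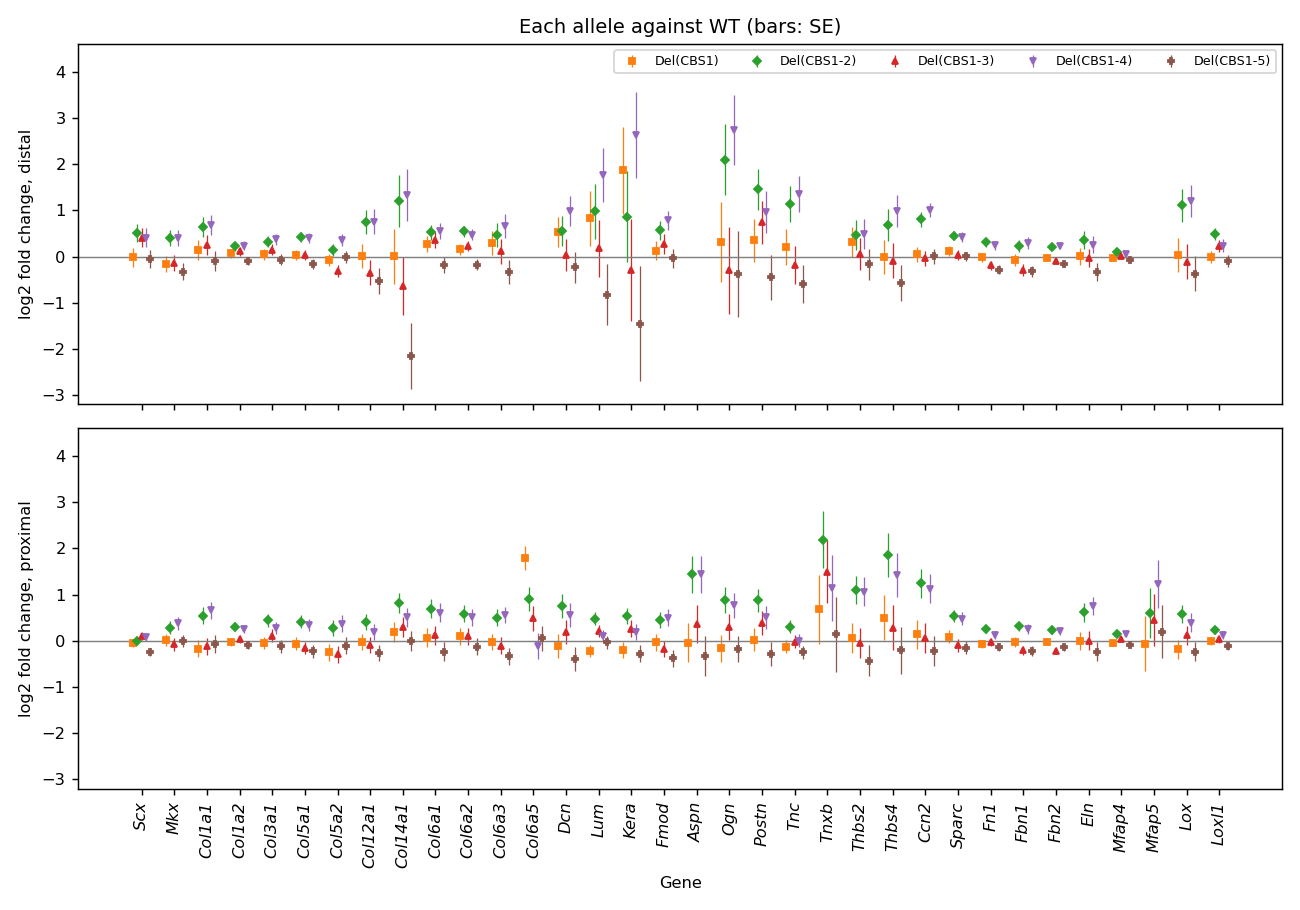
The log2 fold change of each allele against WT with its SE (bars), by gene, in distal (top) and proximal (bottom) tissue. Del(CBS1-2) and Del(CBS1-4) lie above 0 for nearly all genes in both tissues, Del(CBS1-5) mostly lies below, and Col6a5 in proximal Del(CBS1) stands at 1.79.

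When all 6 genotypes were compared at once, most of the genes varied. In distal tissue 23 of 30 passed the edgeR F test over genotypes (19.7% of all genes called), and in proximal tissue 27 of 34 (15.1%). The distal 23 include Kera, Thbs4, Ogn and Col14a1, which reached the count filter in some distal genotypes and not in others. A difference among genotypes was thus built into their choice. The smallest adjusted p were those of Ccn2 (0.000804), Fn1 (0.00367), Col6a2 and Fbn2 in distal tissue and of Col6a5 (0.00137), Fbn2 (0.00693), Fbn1 and Sparc in proximal tissue. Scx, Eln, Dcn, Col1a2, Col6a3, Mfap4 and Thbs2 did not pass in distal tissue. Scx, Mkx, Col12a1, Tnc, Tnxb, Loxl1 and Mfap5 did not in proximal tissue. The test does not say which genotypes differ. The highest of the 6 genotype means was that of Del(CBS1-4) in 23 genes and Del(CBS1-2) in 10 of 34 in distal tissue, and that of Del(CBS1-2) in 24 and Del(CBS1-4) in 8 in proximal tissue. The lowest was that of Del(CBS1-5) in 29 genes in distal and 24 in proximal tissue. How often each genotype was highest or lowest over all genes was not looked at, so these counts may not be particular to the list. They include Aspn, Col6a5, Mfap5 and Tnxb, which were under the count filter in distal tissue. The proximal count of the F test fell to 12 without replicate 1 of Del(CBS1-2). In limma on log2(FPKM + 0.1) the counts were 13 in distal and 14 in proximal tissue (1558 and 1343 of all genes).

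**Figure D4:**
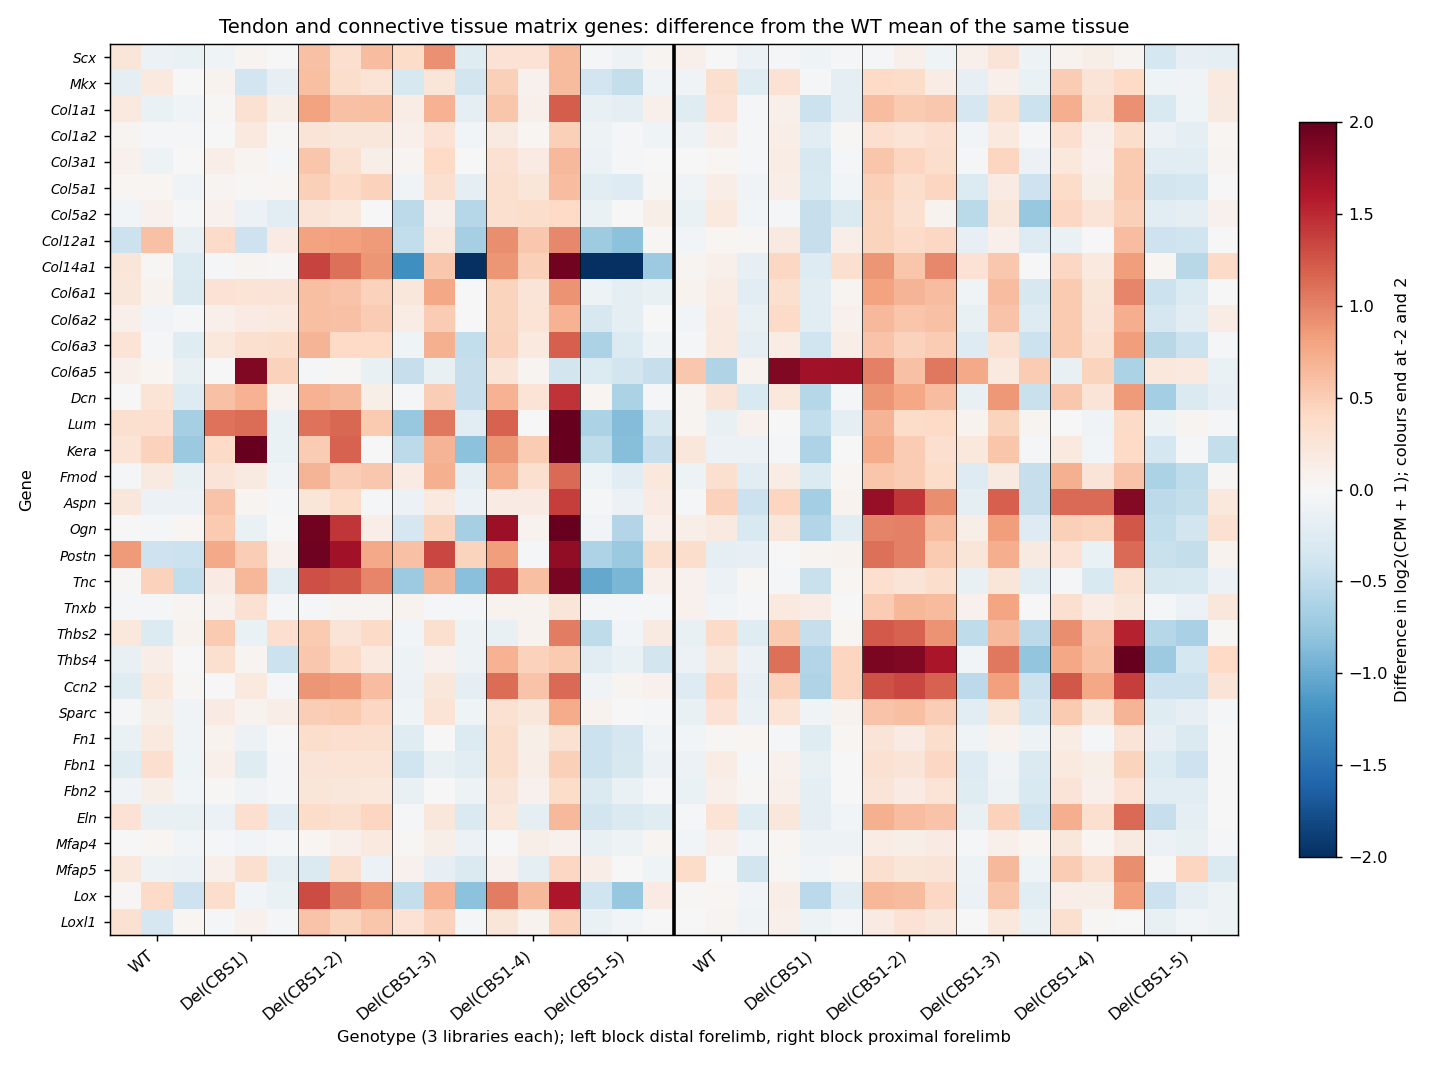
Difference of each library from the WT mean of its tissue in log2(CPM + 1), by gene (lines) and library (columns, 3 per genotype), with colours ending at -2 and 2. Most genes are above WT in Del(CBS1-2) and Del(CBS1-4) in both tissues, and replicate 2 of Del(CBS1-3) is above its group mates.

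Whether an allele acted differently in the tissues was tested as an interaction over all 36 libraries. No gene passed for any of the 5 alleles in edgeR (0%, 0.0491%, 0.00614%, 0.0184% and 0% of 16292 genes called, in the order of the series) or in DESeq2. At an unadjusted p, 1, 1, 0, 4 and 1 were under 0.05. The difference for Scx in Del(CBS1-2), higher in distal and level in proximal tissue, was 0.54 ± 0.22 (adjusted p = 0.331). For Del(CBS1-4) the lowest p were those of Tnc (1.36 ± 0.43), Lum (1.66 ± 0.56), Kera (2.47 ± 0.87) and Ogn (1.97 ± 0.82), with adjusted p of 0.502 to 0.702 (edgeR). With embryos as a block, the paired fit, again 0 of the genes passed for any allele, while the calls over all genes for Del(CBS1-2) went from 8 to 116. Its standard errors were smaller: Scx in Del(CBS1-2) had 0.54 ± 0.16 (edgeR, Benjamini-Hochberg adjusted p = 0.0968) and Tnc in Del(CBS1-4) 1.32 ± 0.31 (adjusted p = 0.145). With no count filter Scx was called in Del(CBS1-2) (adjusted p = 0.00173, edgeR). These values do not show that the tissues responded alike.

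The level of the genes was also followed by embryo. The mean of log2(CPM + 1) over the 34 genes was highest in the same embryo in both tissues in 4 of 6 genotypes and lowest in the same embryo in 4 of 6. Whether this exceeds chance was not tested. Same-numbered libraries deviated together over all genes too (r = 0.162 to 0.503), so it is not shown to be particular to the list. Replicate 2 of Del(CBS1-3) stood at 5.24 in distal tissue, where its group mates had 4.70 and 4.54, and at 7.26 in proximal tissue, where they had 6.74 and 6.60. Replicate 3 of Del(CBS1-4) had 5.86 against 5.38 and 5.06 in distal tissue and 7.52 against 7.24 and 7.05 in proximal tissue. In Del(CBS1), replicate 2 was the highest distally (5.10) and the lowest proximally (6.58). The WT embryos spanned 4.70 to 4.93 in distal and 6.71 to 6.95 in proximal tissue, and all embryos of Del(CBS1-2), at 5.22 to 5.47 and 7.35 to 7.49, and of Del(CBS1-4), at 5.06 to 5.86 and 7.05 to 7.52, lay above them. Del(CBS1-5) spanned 4.49 to 4.80 and 6.52 to 6.86, overlapping WT in both tissues.

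**Figure D5:**
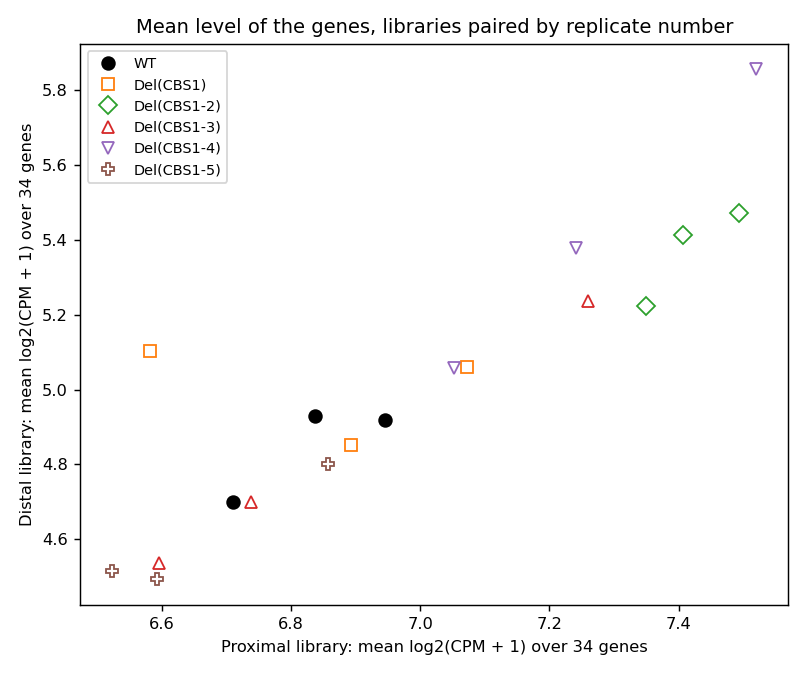
Mean log2(CPM + 1) over the 34 genes in the distal library (vertical) against the proximal library (horizontal) of the same embryo, with 1 symbol per genotype. The embryos of Del(CBS1-2) and Del(CBS1-4), 3 each, lie above and to the right of all WT embryos, and replicate 2 of Del(CBS1-3) lies at 7.26 and 5.24, away from its group mates.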

How the data were processed

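Poly(A) RNA of distal and proximal forelimbs was read from strand-specific libraries as single ends of 50 bases, per the labels' protocols. The authors deposited whole-number read counts per Ensembl gene and FPKM values, which adjust for gene length and depth, per the file headers. Named in the submitters' processing notes are STAR 2.7.0, cutadapt 1.16, Cufflinks 2.2.1, bedtools 2.27.1 and mm10. The sources used here do not give the counting tool's settings, strand included, and reads of overlapping genes may be shared. Groups and replicate numbers came from the sample titles.

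Counts were tested with edgeR 4.0.16 in R 4.3.3 (glmQLFit and glmQLFTest, TMM scaling, filterByExpr on the groups). Tissues were compared in the 6 libraries of each genotype, mutants with WT in the 18 libraries of a tissue, and interactions in all 36 libraries, 23 tests in all, each adjusted by Benjamini-Hochberg over all genes tested. The SE is the log2 fold change divided by the square root of F. The fit was first tested on simulated data. Alternatives were DESeq2 1.42.0, RLE scaling, no count filter, 1 library left out, the replicate number as a block, and limma 3.58.1 on log2(FPKM + 0.1) or log2(FPKM + 1).

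The numbers pair the tissues: libraries are from the limbs of individuals per the labels' protocols, and same-numbered distal and proximal libraries deviated together from their group means in every genotype (r = 0.162 to 0.503 over genes). Replicates differed by more than sampling noise (chi-square per degree of freedom 2.66 to 21.17). Named with values of every library are Scx, Mkx, the 8 largest changes among genes called between WT tissues, and each gene called against WT. Some further values of proximal Ccn2 and of distal Del(CBS1-4) were chosen after they were seen. Of each other list, up to 4 called genes with the smallest p are named. The genes and lists were chosen with earlier results of these data known. Promoters are RefSeq sequences of GRCm38.p6.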

Additional observations from a re-analysis of the deposited data

How the results depend on the processing

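Genes called in a comparison were recomputed under each alternative, giving 3527 values. Of these, 3262 kept direction and call, 265 were no longer called and 0 changed direction while called. Calls gained are counted apart. With no count filter, far more genes were called against WT, in the order Del(CBS1) to Del(CBS1-5): 4, 26, 8, 26 and 11 in distal tissue, 4, 30, 7, 24 and 11 in proximal tissue, and 4, 8, 3, 9 and 2 in the interactions. Calls over all genes rose too, such as from 5 to 361 in distal Del(CBS1). In the same order they were 361, 2151, 551, 1073 and 633 in distal tissue and 250, 1367, 462, 881 and 362 in proximal tissue. In the interactions they were 29, 314, 111, 272 and 94. The cause of the rise was not tested. DESeq2 called 5 in distal Del(CBS1-4) (295 of all genes) and 5 in proximal Del(CBS1-2) (520 of all genes). In limma on log2(FPKM + 0.1) and log2(FPKM + 1), 13 and 14 genes varied among genotypes in distal tissue (1558 and 1572 of all genes). In proximal tissue 14 and 15 did (1343 and 1371 of all genes). In the latter scale 1 passed the interaction of Del(CBS1), where 1 of all genes was called.

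With 1 library left out, the counts between tissues were 29 to 31 in WT and, in the order of the series, 30 to 31, 32 to 33, 29 to 31, 29 to 32 and 29 to 32. Against WT they were 3 to 8 in distal Del(CBS1-2), 0 to 1 in distal Del(CBS1-3) (1 without its replicate 2), 0 to 7 in distal Del(CBS1-4), 0 to 1 in proximal Del(CBS1), 0 to 2 in proximal Del(CBS1-2) (2 without WT replicate 2) and 0 to 4 in proximal Del(CBS1-4) (4 without WT replicate 2), and 0 otherwise. Among all genotypes they were 15 to 28 in distal and 12 to 30 in proximal tissue. A group of 2 was assumed to vary like the others. The counts with 1 library left out stand without the calls over all genes. They include genes that reached the count filter through 1 group only.

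Between genotypes the numbers name no shared embryo. With the replicate number as a block there, 5 genes were called in distal Del(CBS1-2), without Postn (edgeR adjusted p = 0.0613) and Fn1 (0.0699). Among genotypes 17 varied in distal and 22 in proximal tissue. Over all genes the calls were 1305 in distal Del(CBS1-2), and 2261 in distal and 1732 in proximal tissue among genotypes. Between tissues the block, which pairs embryos, gave 31 in WT and 31, 34, 31, 32 and 32 in the mutants. All were lower distally except Mkx in Del(CBS1-2). Over all genes the block called 5763 in WT and 5839, 8515, 6137, 6016 and 6309 in the mutants. The counts of the block include genes that reached the count filter only through proximal libraries. Those among genotypes were taken over genes that include Kera, Thbs4, Ogn and Col14a1, which reached it in some distal genotypes only. Depth limits Aspn, Col6a5, Mfap5 and Tnxb in distal tissue.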

Other observations

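The genes that adjoin the proteoglycan clusters were looked at after their values were seen. Epyc, the proteoglycan gene that follows Kera on chromosome 10, had 0.110 ± 0.103 CPM in distal WT and 2.60 ± 0.802 CPM in proximal WT (SD, n = 3). It reached the count filter only through the proximal libraries, so no test is given. The noncoding gene Gm10754 covers 40.65% of its exon bases, so part of these counts is uncertain. Ecm2, which precedes Aspn on chromosome 13, stood at 1.62 ± 0.196 and 5.61 ± 1.2 CPM (-1.79 ± 0.25, edgeR, Benjamini-Hochberg adjusted p = 0.000946), and Omd, between Aspn and Ogn, was too low to test in WT (0.0228 and 0.738 CPM). Cenpp is the centromere gene whose span holds Ecm2, Aspn, Omd and Ogn on the other strand. It went the other way, with 17.8 ± 0.280 CPM in distal and 12.4 ± 1.38 CPM in proximal WT (0.51 ± 0.12, adjusted p = 0.0100, edgeR). In proximal Del(CBS1-2), Epyc was at 8.84 ± 1.82 CPM and did not pass against WT (1.74 ± 0.53, adjusted p = 0.0954, edgeR). None of the 4 neighbours passed against WT in a proximal mutant, nor did Ecm2 or Cenpp in a distal one, where Epyc and Omd were too low to test.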
